A study of Mus musculus with 30 samples.

Results

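The regions described here are 1944 places in the mouse genome where CTCF and the cohesin subunit RAD21 met acetylated histone H3 at the end of a protein-coding gene. They were selected on measured values, namely the peak lists of 3 antibodies. Peaks of the 4 CTCF libraries were merged where they overlapped, which gave 146989 regions. Of these, 40192 had a CTCF peak in all 4 libraries, 20519 had RAD21 peaks in all 4 as well, and 3300 of those touched a window of 1 kb to each side of a gene end. A gene end is either terminus of the annotated gene, its start or its 3′ end. The members are the 1944 of these 3300 regions (58.9%) that also carried a peak of histone H3 acetylated at lysine 9 (H3K9ac) in all 4 libraries. Another 753 (22.8%) had no H3K9ac peak in any library, and 603 (18.3%) had one in 1 to 3 libraries. The presence of these marks is therefore given as a description, with no test.

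The cells were N1E115, a mouse neuroblastoma line that the labels call NOS1+, grown for 3 days at 4% O2 or at 20% O2. Both groups carry that label, and the labels give no difference between them but the O2 level. Chromatin was immunoprecipitated with 6 antibodies and sequenced, with 2 libraries for each antibody and O2 level. They bind CTCF, RAD21, H3K9ac, RNA polymerase II in total (here POLR2), and the polymerase with a phosphate on serine 5 of its tail (POLR2S5) or on serine 2 (POLR2S2). Nothing in the labels says that both libraries of a group are from different cultures of the line, so every p-value rests on a spread between libraries that may be technical. Of the 20% O2 replicate 1 libraries, those of RAD21, POLR2 and H3K9ac have the shortest list of their antibody, while that of CTCF has the longest. Several results that rest on the 20% O2 replicate 1 libraries, though not all, are given with and without them. Values of 4 libraries are given in the order 4% O2 replicate 1, 4% O2 replicate 2, 20% O2 replicate 1 and 20% O2 replicate 2.

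CTCF is a zinc finger protein that binds a long, directional DNA sequence. Cohesin is a ring-shaped complex that extrudes chromatin loops and halts where it meets CTCF in the right orientation, and RAD21 is the subunit that closes the ring. H3K9ac marks nucleosomes beside active promoters, where RNA polymerase II starts with serine 5 of its tail phosphorylated and goes on into the gene with serine 2 phosphorylated. CTCF at promoters is known to bring distal elements close to genes and to separate neighbouring domains.

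Gene ends with such regions are best introduced by their DNA. Promoter sequences from RefSeq (GRCm38.p6, the same build as the files' mm10) run from 250 bases before to 50 bases after a gene start, and a promoter window of some kind was found for 17492 of 21887 protein-coding genes. Below are the bases around the CTCF core consensus in the 6 members with the highest mean CTCF rank whose window held both the consensus and the CTCF summits. They were chosen for holding the consensus, so they do not stand for all of the strongest sites. Capitals mark the match to CCNNNAGNNGGC, where N is any base. Each sequence is written 5′ to 3′ in the direction of its gene, so a match that points against the gene reads GCCNNCTNNNGG.
Nipsnap2, chr5:129724943-129724994, plus strand: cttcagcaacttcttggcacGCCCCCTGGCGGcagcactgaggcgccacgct
Copg1, chr6:87887701-87887752, plus strand: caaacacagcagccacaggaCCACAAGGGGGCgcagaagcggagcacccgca
Srp9, chr1:182124627-182124678, plus strand: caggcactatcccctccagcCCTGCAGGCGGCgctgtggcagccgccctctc
Crocc, chr4:141060712-141060763, minus strand: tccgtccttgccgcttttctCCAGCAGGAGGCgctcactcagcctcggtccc
Man2b2, chr5:36830631-36830682, minus strand: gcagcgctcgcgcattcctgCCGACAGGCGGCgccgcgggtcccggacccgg
Mapk9, chr11:49846558-49846609, plus strand: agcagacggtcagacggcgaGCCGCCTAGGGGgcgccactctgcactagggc

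The genes serve unrelated tasks. Copg1 encodes a coat subunit of Golgi vesicles, Srp9 a subunit of the signal recognition particle, Crocc the main protein of the ciliary rootlet, Man2b2 a mannosidase and Mapk9 a stress-activated kinase. The matches of Copg1, Srp9, Crocc and Man2b2 point along the gene and those of Nipsnap2 and Mapk9 against it. The centre of the match lay 32.5, 13.5, 15.5, 2.5, 1.5 and 17.5 bp from the CTCF summit at 20% O2 in the order printed. Nipsnap2 is the exception, with the match farthest from its summit among the 6.

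Where promoter windows of members held the same letters and the CTCF summits, the letters mostly stood close under the summit. A summit, the base of highest signal in a peak, is at hand for the replicate 2 libraries. Of 421 promoter windows that held the CTCF summit of a member at both O2 levels, 188 had the consensus on either strand (44.7%, 95% Wilson interval 39.98 to 49.4%, counting error only). It was found in 9.88% of all 21263 promoter windows and in 8.80% of 4888 windows with H3K9ac in all 4 libraries and no CTCF peak in any. The window median GC content was 63.0%, 56.3% and 60.7% in these 3 sets. The stricter consensus CCNCNAGGNGGC was found in 18.5%, 1.40% and 0.450% of them. Where CTCF sat at acetylated gene ends with no RAD21 peak in any library, 26.9% of 93 windows that held both summits had the core (interval 18.9 to 36.7%), which lies below the interval of the members. At gene ends with CTCF and RAD21 but no H3K9ac only 14 windows held both summits, and 7 of them had the core. The CTCF rank was used in no part of this search, and windows with a match had a median rank of 88.0 against 81.0 in the 233 without one, on the percentile scale explained further on.

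**Figure D1:**
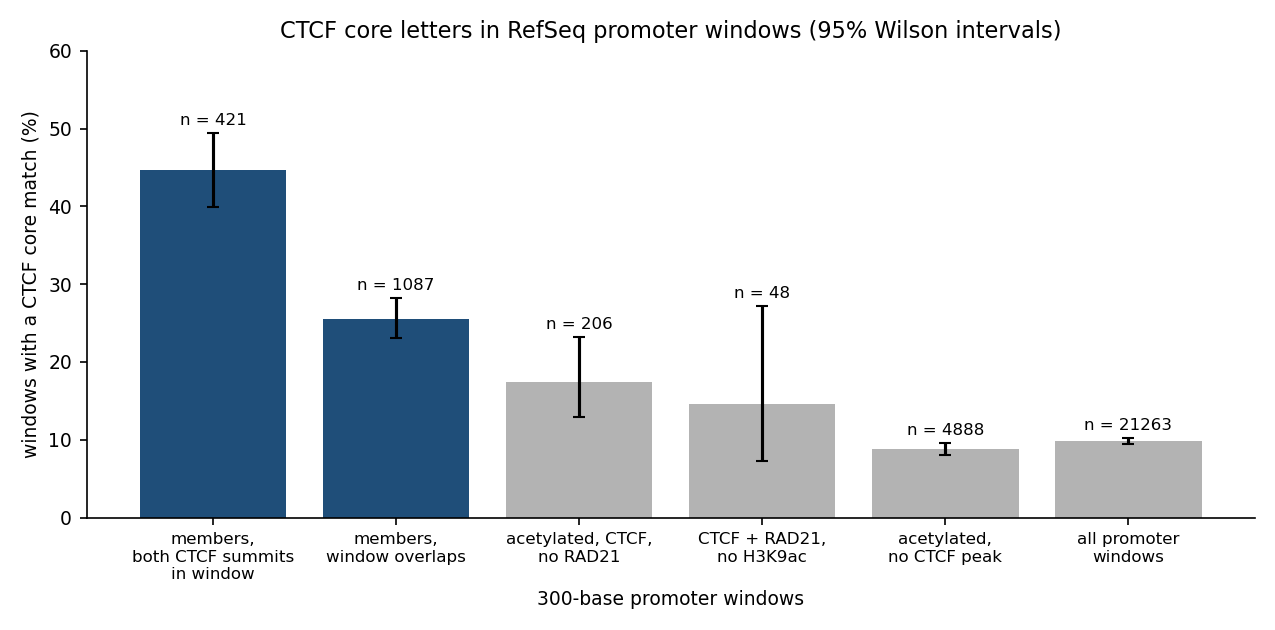
Share of 300-base RefSeq promoter windows (y axis, percent) that hold the CTCF core consensus on either strand, for windows of the members (blue) and comparison sets (grey), with 95% Wilson intervals and the number of windows. The windows with both CTCF summits of a member stand at 44.7%, above windows that only overlap a member (25.6%) and above all windows (9.88%).

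Of the 188 matches, 166 (88.3%) lay within 50 bp of the 20% O2 summit and 165 (87.8%) within 50 bp of the 4% O2 summit, with a median distance of 15.5 bp at both levels. Most were upstream of the gene start. The median centre of a match was at -88.0 bp, with quartiles at -142 and -55.3 bp, and 179 (95.2%) were upstream, where 83.3% of the window lies. The match nearest the summit pointed along the gene in 121 windows and against it in 67. Counting windows with a match on 1 strand only, 63.8% of 177 pointed along the gene (interval 56.5 to 70.6%), beside 52.9% of 418 windows with H3K9ac and no CTCF peak (48.1 to 57.6%) and 55.1% of 2019 over all promoters (53.0 to 57.3%). The difference in direction was not tested.

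Letters of other promoter factors were about as frequent as in windows with H3K9ac and no CTCF peak, within the counting intervals. AAGATGG of YY1 stood in 7.84% of the member windows, ACTACAA of ZNF143 in 4.28% and ACGTG, the core of the element bound by hypoxia-inducible factors (HIF), in 25.7% (interval 21.7 to 30.03%). Windows with H3K9ac and no CTCF peak had 8.27%, 4.75% and 28.0%. GCGCNNGCGC of NRF1 stood in 16.9% (13.6 to 20.7%) against 14.7%, and in 8.57% of all promoter windows. Both strands were searched, a match is only a match of letters, and overlaps between the motifs were not removed.

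More than 1 in 2 of the member windows lacked an exact match to the core consensus, and some of them were among the strongest CTCF sites. Near matches were not counted, so such a window can still hold letters close to the consensus. Shown next, because they are the highest ranked windows of that kind whose bases lie upstream of the gene start, are 61 bases around the 20% O2 summit at Cox14, an assembly factor of cytochrome c oxidase, and Ppard, a nuclear receptor. They were chosen after the values were seen. The capital marks the summit base. The Cox14 bases hold gcggtagggggc, which departs from the consensus at its first letter only.
Cox14, chr15:99725432-99725492, plus strand: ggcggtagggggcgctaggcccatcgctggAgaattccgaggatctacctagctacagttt
Ppard, chr17:28232556-28232616, plus strand: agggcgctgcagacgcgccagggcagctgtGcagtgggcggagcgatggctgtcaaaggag

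RAD21 sat on top of CTCF, and H3K9ac beside it. The median distance from the CTCF summit to the nearest RAD21 summit was 15 bp at 4% O2 and 13 bp at 20% O2, and 87.6% and 91.6% of the 1944 members had one within 50 bp. The nearest H3K9ac summit lay 251 bp away at 4% O2 (quartiles 203 and 446 bp) and 257 bp at 20% O2 (200 and 471 bp). It lay between 150 and 300 bp in 52.7% and 49.9% of members, and within 100 bp in 2.47% and 2.68%. The rule asked only that the merged CTCF region and an H3K9ac peak touch, and member regions had a median width of 1367 bp (quartiles 910 and 1960 bp). The rule therefore limits how far the summits can be apart and does not set the gap between them.

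**Figure D2:**
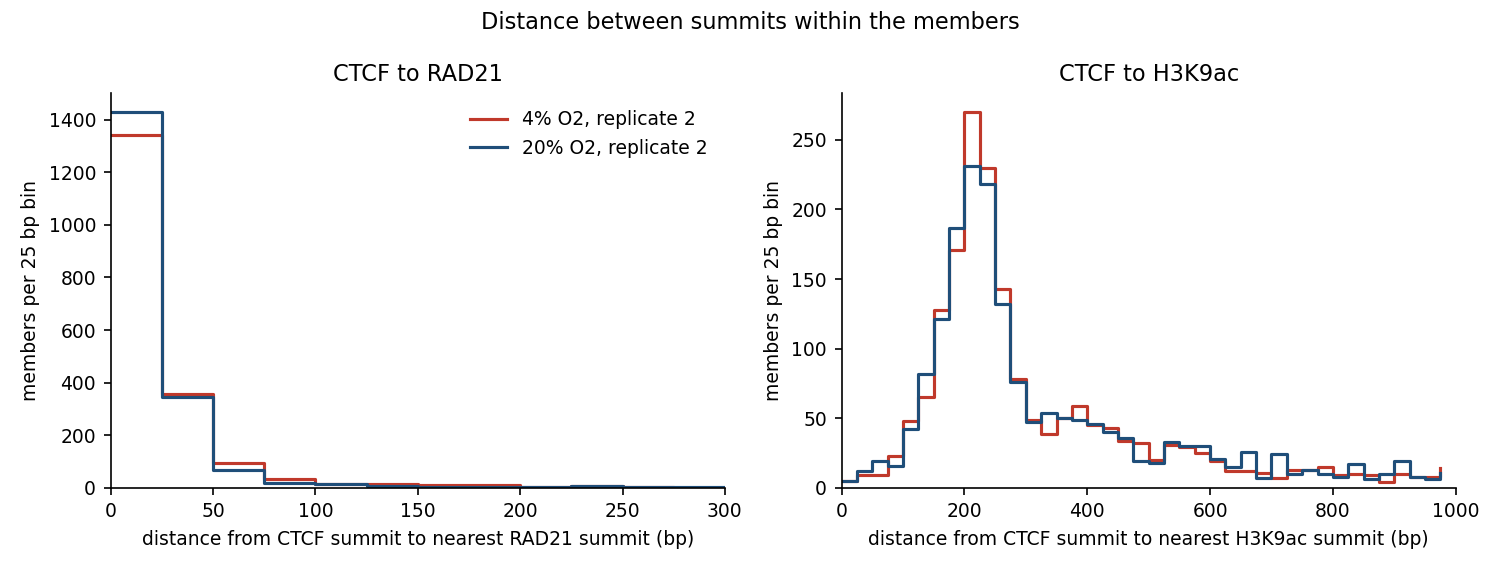
Number of members (y axis, per 25 bp bin) by distance in bp from the strongest CTCF summit to the nearest RAD21 summit (left) and H3K9ac summit (right), in the replicate 2 libraries at 4% O2 (red) and 20% O2 (blue). RAD21 summits pile up near 0 (medians 15 and 13 bp), while H3K9ac summits peak between 150 and 300 bp and are scarce within 100 bp.

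The CTCF summit itself mostly fell outside the H3K9ac peaks. The 4% O2 summit lay inside an H3K9ac peak in 20.9%, 31.6%, 24.6% and 32.9% of members, by H3K9ac library. At the 397 acetylated gene ends with CTCF and no RAD21 it did so in 54.7%, 72.0%, 59.2% and 68.3%. There the H3K9ac summit was within 100 bp in 13.6%, and the median distance was 278 bp. Those regions were narrower (median 477 bp), and the H3K9ac lists chose both sets, so the contrast is given without a test. Summits kept their place between O2 levels: the 4% and 20% O2 CTCF summits of a member were a median of 11 bp apart, and over 100 bp apart in 77 members (3.96%).

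Members were mostly at gene starts. The strand of a gene was taken from the promoter table. By it, counting stranded genes alone, 1175 members (60.4%) touched only gene starts, 222 (11.4%) only 3′ ends and 140 (7.20%) both. Another 407 (20.9%) touched only genes whose strand that table does not give, among them all of chromosome 18. The other members can also touch an end of a gene without a strand, and that end may be a start. A total of 100 (5.14%) lay at starts of genes facing in opposite directions. The gene ends with CTCF and RAD21 and no H3K9ac were placed the other way round, with 122 (16.2%) at starts only and 462 (61.4%) at 3′ ends only. Of 1909 members with a stranded gene on their chromosome, 51.1% had their 4% O2 CTCF summit within 1 kb of the nearest stranded gene start, and 60.2% of those were upstream of it.

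A member touched 2171 genes, 9.92% of all 21887 protein-coding genes and, for 2083 of them, 18.6% of the 11213 genes with an end under H3K9ac in all 4 libraries. Chromosome 15 stood highest, with 120 members and 17.0% of its genes. Chromosomes 8 and 11 followed at 14.7% and 14.4%. Chromosome X stood lowest among those with members, at 2.17% with 20 members, and chromosome Y had 0. Of 35 CTCF and RAD21 regions at gene ends on X, 57.1% were members, beside 58.9% of all 3300 such regions. The copy number of the chromosomes in this line was not measured, and its part in these shares was not tested.

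Strength was compared as a percentile rank, where 100 is the highest peak score in a library among the regions called in all 4 libraries of the antibody. Scores of different libraries are not on 1 scale, so only ranks were compared. Members ranked high for CTCF, with medians of 78.1, 85.9, 74.1 and 83.8, and in the middle for RAD21, with 55.5, 64.5, 43.9 and 59.4. For H3K9ac the medians were 63.2, 70.0, 58.9 and 69.7. CTCF was ranked among 40192 regions and RAD21 among 21298, so the ranks of different marks are not on 1 scale. At gene ends with CTCF and RAD21 but no H3K9ac the CTCF medians were 71.9, 69.7, 71.5 and 70.1 and the RAD21 medians 45.5, 45.0, 47.2 and 42.0. The members were thus higher in all 4 libraries for CTCF and in 3 of 4 for RAD21, with the 20% O2 replicate 1 library on the other side. CTCF at acetylated gene ends without RAD21 ranked low, with 21.5, 28.5, 18.2 and 17.5, while H3K9ac there stood at 60.5, 68.1, 58.6 and 69.3, below the members by 0.32 to 2.69 points. CTCF and RAD21 regions away from gene ends without H3K9ac had CTCF medians of 63.9, 59.5, 64.75 and 63.6. Their RAD21 medians were 36.9, 34.5, 45.3 and 37.8. The lists ranked here also chose these sets, so the contrasts are a description, with no test.

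**Figure D3:**
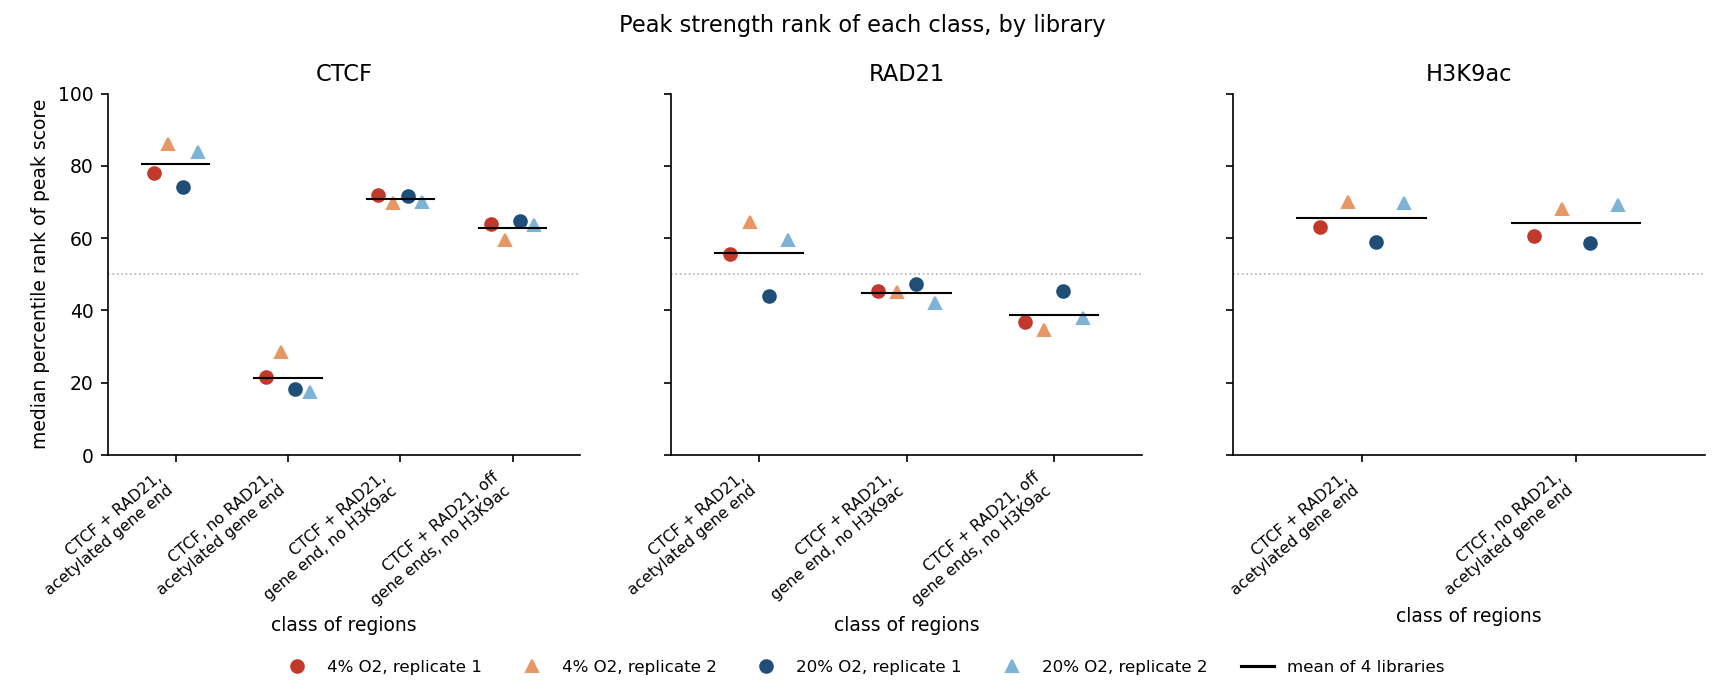
Median percentile rank of peak score (y axis) for CTCF, RAD21 and H3K9ac in 4 classes of regions, where a class has that mark, with 1 point per library and a line at the mean of 4 libraries; the dotted line is the middle rank. Members have CTCF medians of 74.1 to 85.9 against 17.5 to 28.5 for acetylated gene ends without RAD21, and their lowest RAD21 median, 43.9, is in the 20% O2 replicate 1 library.

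The member with the highest mean CTCF rank was at the start of Nipsnap2, which encodes a mitochondrial protein (chromosome 5, 129723883 to 129725577). Its CTCF ranks were 99.93, 99.88, 99.93 and 99.96, while its RAD21 ranks were only 30.6, 44.8, 36.8 and 28.5. At the 3′ end of Gdf15, a stress-induced cytokine gene (chromosome 8, 70628812 to 70630970), CTCF ranked at 99.86, 99.98, 99.87 and 99.99 and RAD21 at 40.2, 70.7, 47.5 and 43.8. The same held to a lesser degree at Gtf3c5, a subunit of the polymerase III factor TFIIIC, with RAD21 at 64.6, 85.7, 74.8 and 81.2. Necap2, an endocytosis gene, had RAD21 at 95.6, 99.9, 93.2 and 99.9, and Top1mt, the mitochondrial topoisomerase, at 89.8, 87.6, 90.8 and 97.1. Cpsf1, a subunit of the cleavage and polyadenylation complex, had 53.9, 83.8, 20.5 and 64.2. Top CTCF sites among the members therefore ranged from low to top RAD21 ranks.

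RAD21 was highest at Tcea2, an elongation factor gene (chromosome 2, 181675541 to 181680738), with ranks of 99.90, 99.96, 99.88 and 99.85. It was followed by the region shared by Ankrd39 and Sema4c, by the 3′ end of Cyth4, and by Nsg2, which encodes a protein of neuronal endosomes. At Nsg2 the RAD21 ranks were 99.87, 99.87, 99.58 and 99.78 and H3K9ac stood at 65.0, 54.5, 16.9 and 34.4. Polymerase islands covered the Nsg2 region in only 1, 2 and 2 of 4 libraries for POLR2, POLR2S5 and POLR2S2.

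The edge of the set depends on 1 library. The RAD21 list of 20% O2 replicate 1 is the shortest, with 26908 peaks against 39012 to 73328 in the other 3. Of 935 acetylated gene ends that missed the rule by 1 RAD21 library, 895 missed it only there. The region at Ap3d1, an adaptor complex subunit (chromosome 10, 80742397 to 80744152), had authors' RAD21 scores of 196 and 296 at 4% O2, no peak in 20% O2 replicate 1, and 238 in replicate 2. Limk1 and Abl1, both kinase genes, followed the same pattern. By H3K9ac, 193 regions missed 1 library, 91 of them only 20% O2 replicate 1 and 76 only 4% O2 replicate 1. Just inside the rule, the region at Aftph had a RAD21 score of 2.004 in 20% O2 replicate 1 and the one at Olfr149 an H3K9ac score of 2.06 in 4% O2 replicate 1, where the lowest score in any list is 2.002. Without the 20% O2 replicate 1 libraries the rule gave 3018 regions.

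RNA polymerase II was not part of the rule, and it covered most members. POLR2 islands, the broad enriched stretches of the polymerase lists, touched 89.8%, 92.0%, 53.9% and 95.1% of the 1944 members. POLR2S5 islands touched 91.6%, 93.8%, 70.5% and 96.1%, and POLR2S2 islands 73.9%, 83.1%, 37.6% and 74.4%. The 20% O2 replicate 1 library was lowest for all 3 forms and set the spread, and its POLR2 list is also the shortest of that antibody, with 11172 islands against 18494 to 23262. Median reads per island in 20% O2 replicate 1 were 126, 115 and 88 for POLR2, POLR2S5 and POLR2S2, the lowest of each form. Between O2 levels the member shares overlapped for POLR2 and POLR2S5 (exact permutation p = 1.0 for each, n = 2 per level, two-sided). For POLR2S2 the 4% O2 share was higher within both replicate numbers, but 20% O2 replicate 2 lay above 4% O2 replicate 1, at 78.5% ± 6.51 against 56.0% ± 26.0 (SD, n = 2, exact permutation p = 0.667). Islands had median lengths of 3400 to 7200 bp by library, longer than most members, so an island over a member can belong to a neighbouring part of the gene.

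At gene ends with CTCF and RAD21 but no H3K9ac, fewer regions lay under polymerase. There POLR2 touched 20.5%, 25.2%, 13.4% and 27.8%, POLR2S5 40.6%, 36.4%, 39.97% and 45.7%, and POLR2S2 51.7%, 46.6%, 46.0% and 53.5%. The members exceeded them by 60.98 ± 13.7 percentage points for POLR2 (SD over 4 libraries, higher in 4 of 4), 47.3 ± 11.6 for POLR2S5 (4 of 4) and 17.8 ± 18.8 for POLR2S2 (3 of 4). With 4 libraries the exact sign-flip permutation test cannot go below 0.13, and it gave p = 0.13, 0.13 and 0.25, two-sided. Over all 12 polymerase libraries the difference was 42.0 ± 23.2 points, positive in 11 of 12 (exact permutation p = 0.000977). The exception was POLR2S2 of 20% O2 replicate 1, at -8.35. Without the 3 libraries of 20% O2 replicate 1 the difference was 49.1 ± 18.7 points (9 of 9, exact permutation p = 0.00391). Libraries of different antibodies may share chromatin, which the test over 12 does not count.

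**Figure D4:**
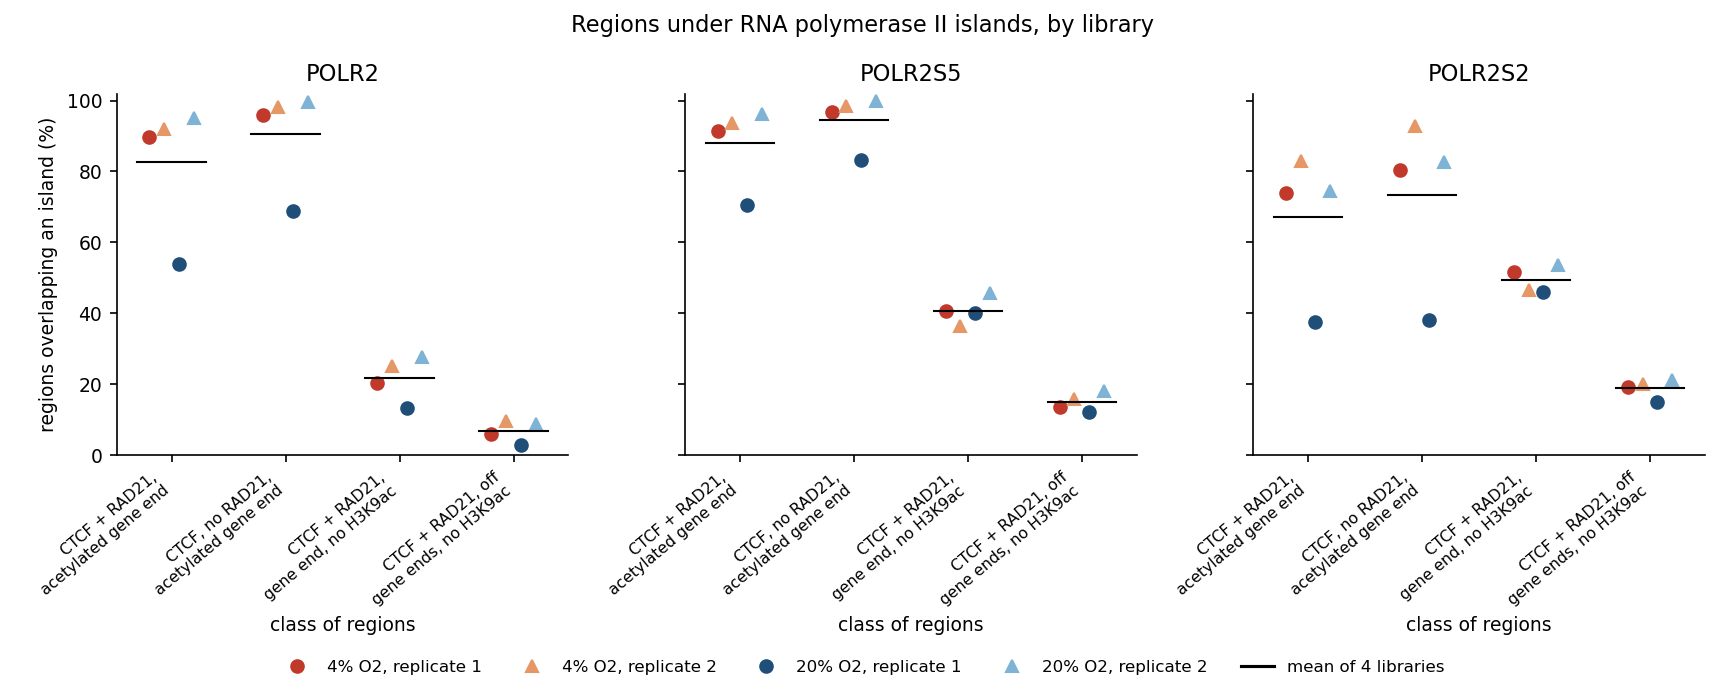
Share of regions that overlap an island of POLR2, POLR2S5 or POLR2S2 (y axis, percent) in 4 classes of CTCF regions, with 1 point per library and a line at the mean of 4 libraries. Acetylated gene ends stand high with and without RAD21, regions off gene ends stand low, and the 20% O2 replicate 1 library is the lowest point in the members for each form.

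Position within the gene changed this contrast, most of all for the serine 2 form. These splits were made after seeing the data. They count stranded genes only, so a region at 3′ ends alone can also touch the start of a gene without a strand. At gene starts alone, POLR2S2 touched 74.8%, 86.3%, 34.0% and 77.0% of 1175 members and 16.4%, 17.2%, 11.48% and 19.7% of 122 regions without H3K9ac, a difference of 51.8 ± 20.3 points (4 of 4 libraries, exact permutation p = 0.13). At 3′ ends alone it touched 66.7%, 70.7%, 43.2% and 64.4% of 222 members and 64.9%, 57.6%, 58.0% and 65.8% of 462 regions without H3K9ac. The serine 2 difference at 3′ ends was -0.319 ± 11.48 points (2 of 4, exact permutation p = 1.0). For POLR2 and POLR2S5 the 3′ end differences were 44.9 ± 13.6 and 27.2 ± 12.2 points (4 of 4 each, exact permutation p = 0.13 for both). A p of this size does not show that serine 2 coverage was the same at both kinds of 3′ end.

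**Figure D5:**
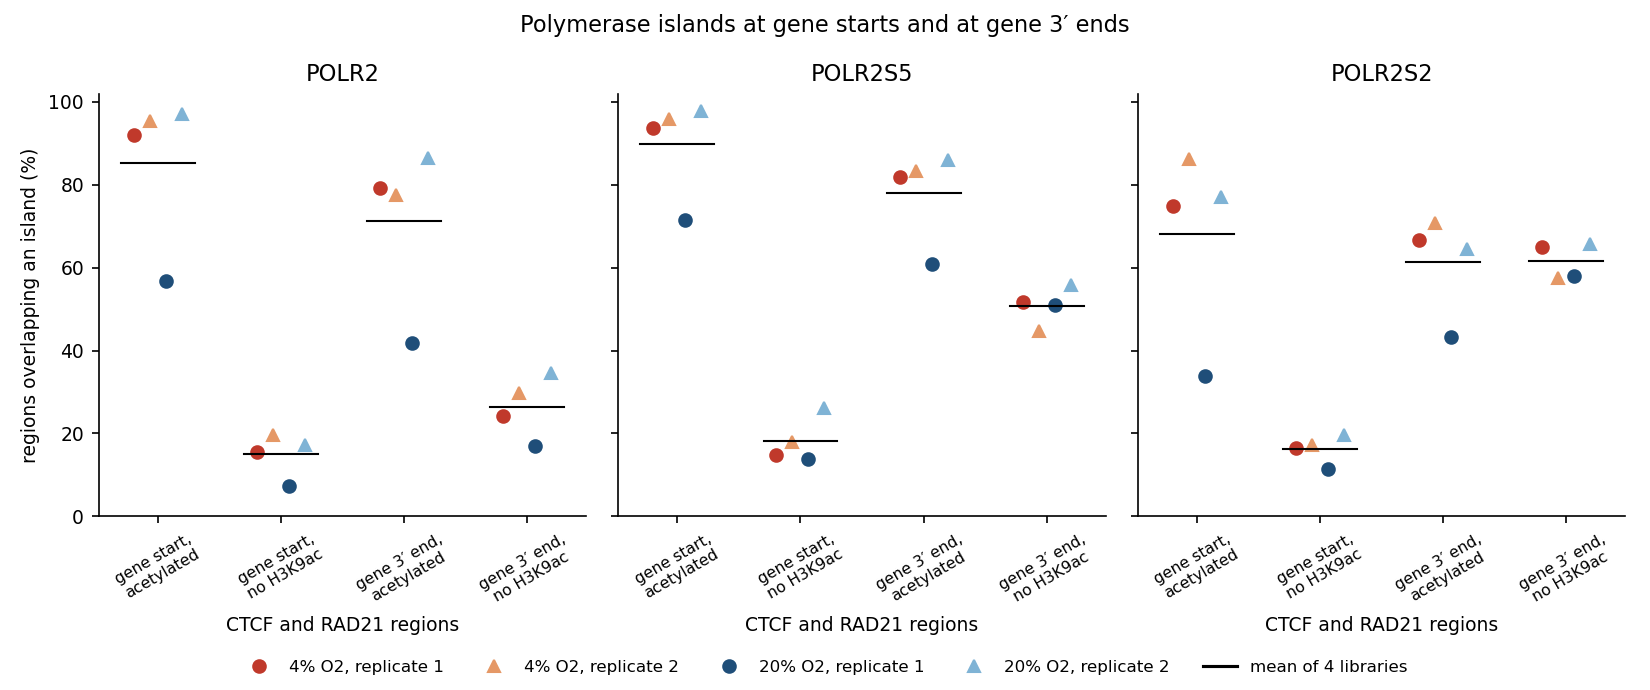
Share of CTCF and RAD21 regions under polymerase islands (y axis, percent) at starts and at 3′ ends of stranded genes, with and without H3K9ac, with 1 point per library and a line at the mean of 4 libraries. At 3′ ends the POLR2S2 points of both kinds overlap (43.2 to 70.7% and 57.6 to 65.8%), while at gene starts they lie apart.

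Among the members themselves, again by stranded genes only, gene starts were under polymerase more often than 3′ ends. The difference was 10.8 ± 6.83 points over 12 libraries (positive in 11, exact permutation p = 0.00146). By form the differences were 13.99 ± 3.17 for POLR2 and 11.8 ± 0.747 for POLR2S5 (4 of 4 and exact permutation p = 0.13 for each). For POLR2S2 the difference was 6.76 ± 11.1 (3 of 4, exact permutation p = 0.375). There the 20% O2 replicate 1 library had 33.96% at starts and 43.2% at 3′ ends. Libraries of different antibodies may share chromatin, which the test over 12 does not count. Members at 3′ ends only had higher median mean ranks of CTCF and RAD21, 87.6 and 70.8 against 77.9 and 51.2 at starts only, and a lower H3K9ac rank, 45.7 against 66.7.

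Acetylated gene ends with CTCF and no RAD21 peak were covered more often than the members, in every one of the 12 libraries. POLR2 touched 96.0%, 98.2%, 68.8% and 99.5% of those 397 regions. Members minus these regions gave -6.88 ± 3.96 points (SD, exact permutation p = 0.000488, the smallest that 12 libraries can give), with differences from -14.9 to -0.432 points. By form the mean was -7.93, -6.52 and -6.18 points for POLR2, POLR2S5 and POLR2S2 (exact permutation p = 0.13 for each). At gene starts alone the difference was -4.97 ± 2.99 points (0 of 12 higher, exact permutation p = 0.000488). Without the 20% O2 replicate 1 libraries it was -6.07 ± 1.89 (0 of 9 higher, exact permutation p = 0.00391). These regions are narrower than the members, and the part of width in this difference was not tested. Away from gene ends, 9479 CTCF and RAD21 regions without H3K9ac had far less polymerase, and the members exceeded them by 65.8 ± 18.8 points (12 of 12, exact permutation p = 0.000488). Leaving out 20% O2 replicate 1 gave 73.0 ± 12.7 points (9 of 9). Libraries of different antibodies may share chromatin, which none of these pooled tests counts.

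Of the members, 526 (27.1%) lay under an island in all 12 polymerase libraries and 33 (1.70%) in none. The 33 had a median H3K9ac rank of 26.0, against 64.5 over all members, and median CTCF and RAD21 ranks of 83.5 and 69.3, against 79.9 and 55.1. Starts and 3′ ends each made up 33.3% of them. Among them, named after their values were seen, were Wnt7b, a secreted signalling protein (CTCF rank 98.0, RAD21 99.7), Tph2, the neuronal enzyme of serotonin synthesis (87.2 and 49.8), Hdc, which makes histamine (84.0 and 6.38), and Cd247, a chain of the T cell receptor (95.8 and 81.6). Another 28 members had POLR2S5 in all 4 libraries and POLR2S2 in none, and 0 had the reverse.

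Between O2 levels the rank of CTCF at the members moved little. The median of the rank difference, 4% minus 20% O2, was 2.01 percentile points for CTCF (1.90 within replicate 1, 1.74 within replicate 2), 5.98 for RAD21 (5.84 and 4.39) and 2.11 for H3K9ac (3.26 and 0.371). The library medians of the O2 levels overlapped for each mark (exact permutation p = 0.667, n = 2 per level, where 2 against 2 cannot go below 0.33). The peak lists behind these ranks also chose the members, so no conclusion is drawn from p-values of ranks. Ranks are relative: CTCF and RAD21 regions away from gene ends and without H3K9ac moved by -2.53 for CTCF and -3.99 for RAD21, and gene ends without H3K9ac by -0.0902 and 0.170. The RAD21 gap between members and the regions away from gene ends was 18.6, 30.1, -1.41 and 21.6 points by library, and it was larger at 4% O2 by 20.0 points in replicate 1 and by 8.51 in replicate 2 (exact permutation p = 0.667). The replicate 1 change rests on the 20% O2 replicate 1 library, where the gap was -1.41. Without the 20% O2 replicate 1 libraries the RAD21 difference of the members was 1.38, and those of CTCF and H3K9ac changed sign, to -1.40 and -1.91.

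RAD21 ranked higher in both 4% O2 libraries than in both 20% O2 libraries at 477 of 1937 ranked members (24.6%), where 16.4% of 21298 shared RAD21 regions did so. It ranked lower at 109 (5.63%), where 17.8% did so. For CTCF, 259 of 1944 members (13.3%) were higher and 68 (3.50%) lower, beside 10.2% and 9.89% of 40192 shared regions. For H3K9ac, 301 of 1935 (15.6%) were higher and 206 (10.6%) lower, beside 13.9% and 13.1% of 39931. The members' H3K9ac shares stood nearest to the background. In the 20% O2 replicate 1 library the members' median rank is the lowest for each of the 3 marks. Set against 20% O2 replicate 2 alone, a comparison added after seeing the data, RAD21 ranked higher in both 4% O2 libraries at 690 members (35.6%), beside 30.7% of all shared regions, and lower at 412 (21.3%), beside 31.0%. On that basis CTCF was higher at 456 members (23.5%, beside 26.6%) and lower at 460 (23.7%, beside 26.2%). H3K9ac was higher at 562 (29.0%) and lower at 645 (33.3%), beside 30.9% in either direction. In these counts an excess of higher over lower members was seen for RAD21 and not for CTCF or H3K9ac. The 20% O2 replicate 1 lists still took part in choosing the members, and replicate 2 alone stands for 20% O2 here. The counts were not tested.

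Single members with the largest changes of rank included ribosomal and chromatin genes. At Rpl11, a protein of the large ribosomal subunit (chromosome 4, 136053213 to 136054979), the RAD21 ranks were 61.2 and 82.6 under 4% O2 but 11.4 and 49.97 under 20% O2. Emsy, a chromatin protein that binds BRCA2, had RAD21 at 40.8 and 62.9 against 0.510 and 20.2, and the second of the members at Slc9a8, a sodium and proton exchanger, 50.2 and 55.3 against 4.71 and 17.1. In all 3 the 4% O2 values of a replicate exceed the 20% O2 value of the same replicate by over 30 points. RAD21 was lower at 4% O2 at Slc41a3, at 37.1 and 8.30 against 60.3 and 47.1. Ostc, a subunit of oligosaccharyltransferase, had 24.4 and 36.8 against 59.4 and 55.4. Apoa2, an apolipoprotein gene, and Tomm40l share a pair of neighbouring members that went opposite ways. The first (chromosome 1, 171220230 to 171222053) had RAD21 at 37.7 and 58.8 against 79.3 and 74.8, and the second (171222083 to 171223544) at 86.7 and 76.1 against 54.3 and 68.4.

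CTCF ranked higher under 4% O2 between Gdpd3 and Ypel3, with 67.1 and 81.2 against 49.6 and 47.9, at Tmc6, with 77.8 and 86.1 against 50.9 and 61.5, and at Lyl1, a transcription factor gene, with 59.6 and 69.98 against 39.96 and 42.9. It was lower at Nuf2, a kinetochore gene, with 60.9 and 75.4 against 79.6 and 88.2, and at Gm9805. Pkm, the pyruvate kinase of glycolysis, had CTCF at 20.9 and 16.4 against 26.6 and 46.9 and H3K9ac at 91.2 and 94.0 against 81.1 and 73.8, so the marks differed in opposite directions there. These members were picked for their difference, which is given with no test.

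H3K9ac rank was higher at 4% O2 at Tmem87b, with 54.7 and 53.7 against 8.22 and 1.95, at Igfbp7, which binds insulin-like growth factors, with 91.0 and 63.0 against 37.7 and 25.02, and at Scn4a, a sodium channel of muscle, with 70.7 and 82.7 against 16.3 and 53.7. It was lower at Zfp703, a zinc finger gene, with 11.8 and 45.3 against 72.5 and 70.4, at Psg16, with 9.02 and 30.3 against 69.6 and 51.9, and at Tedc1, a centriole gene, with 31.9 and 59.2 against 91.9 and 75.9. At Zfp703 the CTCF ranks were 35.6 and 58.1 against 25.6 and 46.4, higher under 4% O2 within both replicate numbers, the opposite direction to its H3K9ac.

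Polymerase reads over the members were compared on merged islands called in all 4 libraries of a form. These took in 1187, 1496 and 1120 members for POLR2, POLR2S5 and POLR2S2, and members close to each other can share an island. With edgeR's quasi-likelihood test, 0 of these members passed an adjusted p of 0.05 for any form, beside 0% of 7811, 0% of 9933 and 0% of 5936 islands. At an unadjusted p under 0.05, edgeR had 34, 31 and 39 of the members, beside 174, 288 and 349 of all islands. With the replicate number as a block, edgeR called 0, 0 and 4 members, beside 0.0256%, 0.0302% and 0.185% of islands. DESeq2 called 0, 2 and 7, beside 0.0128%, 0.275% and 1.1%. Without 20% O2 replicate 2 that level has 1 library, replicate 1, which is assumed to vary like the 4% O2 libraries. In that fit edgeR called 46 members for POLR2 (44 of them higher at 4% O2), beside 2.5% of islands, and 10 for POLR2S5, beside 0.503%. The median log2 ratio of the members, 4% over 20% O2, was 0.044, 0.040 and 0.066, and that of all islands -0.025, -0.014 and -0.0038. Per kb of island the medians were -0.39, -0.21 and -0.27 in the members and -0.48, -0.30 and -0.37 over all islands.

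The 4 members called with the block lay on 3 POLR2S2 islands. The member at the start of Pde10a, a phosphodiesterase of striatal neurons (chromosome 17, 8523885 to 8525083), lay on an island that held 2635 and 6313 reads in the 4% O2 libraries against 104 and 257. With the block its log2 ratio was 3.74 ± 0.31 (SE, n = 2 per level, edgeR adjusted p = 0.0106 with the block and 0.521 without). Island length was 67.8 and 102.6 kb under 4% O2, 5.2 and 7.6 kb under 20% O2. Reads per kb had a log2 ratio of 0.0088, where the median of all POLR2S2 islands was -0.37. CTCF at this member ranked at 73.2, 81.3, 85.3 and 74.5, with no order between the O2 levels, and H3K9ac at 58.6, 96.3, 97.7 and 81.0.

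Members at the start of Cdh22, a cadherin gene, and at Fam78b were the other three. Both Cdh22 members share an island with 3933 and 6047 reads against 524 and 994, a log2 ratio of 1.85 ± 0.24 (edgeR adjusted p = 0.033 with the block, 0.521 without) and -0.26 per kb. Their CTCF ranks were 63.9, 78.3, 59.5 and 64.7 for the first, higher under 4% O2 within both replicate numbers, and 29.7, 82.3, 42.9 and 78.3 for the second, with opposite signs in the replicates. At Fam78b the reads were 1215 and 2658 against 3078 and 4864, a ratio of -2.01 ± 0.26 (edgeR adjusted p = 0.033 with the block) and -0.67 per kb. The per kb ratios are to be read beside the median of all POLR2S2 islands, -0.37. All 3 islands differed in length between the levels in the direction of their reads, and per kb none of them passed edgeR's adjusted p of 0.05.

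Genes of the HIF response and glycolysis had a member at 6 of 36 genes, or 6 of the 33 that were acetylated (18.2%, beside 18.6% of all acetylated genes). Slc2a1, the main glucose transporter and a classical HIF target, had a POLR2S5 ratio of 2.22 ± 0.44 (SE, n = 2 per level, edgeR adjusted p = 0.999, or 0.163 with the block). Its islands were 38.2 and 41.2 kb long in the 4% O2 libraries and 3.6 and 10.8 kb in the others. Per kb the log2 ratio was -0.52, where the median of all POLR2S5 islands was -0.30. There CTCF ranked at 58.0, 81.0, 52.9 and 58.6, RAD21 at 29.0, 75.4, 12.8 and 59.4 and H3K9ac at 31.9, 31.04, 10.8 and 23.4. H3K9ac was higher in both 4% O2 libraries than in both others, and CTCF and RAD21 were higher under 4% O2 within each replicate number. Vegfa, the angiogenic growth factor (chromosome 17, 46032308 to 46033554), had CTCF and RAD21 far up the ranking at both levels, with CTCF at 94.2, 97.7, 91.0 and 94.0 and RAD21 at 93.3, 97.8, 97.0 and 98.3, and a POLR2S5 ratio of -0.05 ± 0.40. The others were Tpi1, Adm, Ddit4 and Pkm.

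In the list of CTCF, cohesin and partners, 6 of 26 genes had a member (23.1%, beside 9.92% of all genes), or 6 of 21 acetylated ones (28.6%, beside 18.6% of all acetylated genes). These counts were not tested. Among them were Ctcf itself, the cohesin subunit gene Smc3, and Pds5a, which regulates the ring's release. At the start of Ctcf (chromosome 8, 105636330 to 105638147) CTCF ranked at 51.1, 92.2, 49.9 and 92.9, high in both replicate 2 libraries and lower in both replicate 1 libraries. At Smc3 it ranked at 81.9, 96.7, 91.9 and 97.1, with weak H3K9ac at 6.54, 11.4, 5.24 and 17.8. Adnp, Patz1 and Ddx5 were the others.

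Enzymes and readers of histone acetylation had a member at 6 of 24 genes, all 24 acetylated (25%, beside 18.6% of all acetylated genes, untested). They included the acetyltransferase genes Ep300, Crebbp and Kat6b, the deacetylase gene Hdac1 and the reader gene Yeats4. The Ep300 member (chromosome 15, 81586038 to 81586331), named after its values were seen, was faint for CTCF, at 2.41, 11.1, 1.44 and 8.39, and strong for H3K9ac, at 80.7, 85.6, 93.4 and 99.2. At Kat6b CTCF was also low, at 7.37, 33.7, 7.38 and 10.2. Crebbp stood higher, at 13.7, 55.0, 23.2 and 53.6. Higher still were Hdac1, at 74.0, 89.9, 61.5 and 92.4, and Yeats4, at 77.6, 78.2, 65.0 and 80.9. The members of this list therefore had no common CTCF rank.

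Polymerase and pausing genes had a member at 2 of 25, all 25 acetylated (8.0%, beside the same 18.6%). These were Cdk9, the kinase that releases paused polymerase, and Hexim1, its inhibitor. At Cdk9 (chromosome 2, 32712849 to 32714239) CTCF ranked at 97.1, 99.5, 99.2 and 98.3 and all 12 polymerase libraries had an island, with log2 ratios of 0.07, 0.10 and 0.18. Splicing factor genes had a member at 0 of 18, beside 18.6% of all acetylated genes, where all 18 were acetylated and 7 had CTCF at an end in all 4 libraries.

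Cytosolic ribosomal protein genes had a member at 13 of 73 (13 of 72 acetylated, 18.1%), among them Rpl26, Rpl36 and Rpl11. At Rpl26 CTCF ranked at 98.1, 98.6, 97.0 and 94.0 and RAD21 at 61.2, 78.7, 2.08 and 67.3, with 20% O2 replicate 1 far below the rest. Proteasome subunits had a member at 6 of 39 and replication and cell cycle genes at 4 of 24, namely Mcm5, Cdc6, Ccna2 and Cdt1. These shares lie near that of all acetylated genes.

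The labelled cell type was checked against markers. Of 12 neuroblast and sympathetic markers, 10 were acetylated at an end in all 4 libraries. Of those 10, 2 had a member (20.0%), Mycn among them. No member was found at 8 macrophage, 6 endothelial, 6 fibroblast and 5 astrocyte markers. Of these, 1 macrophage marker (Cd68) and 1 astrocyte marker (Gfap) were acetylated, named after their values were seen. Members were found at 9.92% of all protein-coding genes and 18.6% of acetylated ones. Beside those shares the member counts do not tell cell types apart. At the start of Mycn, the oncogene of neuroblastoma (chromosome 12, 12942129 to 12943553), RAD21 ranked at 86.7, 91.1, 92.2 and 91.1 and H3K9ac at 30.7, 23.7, 62.8 and 19.6, and all 12 polymerase libraries had an island.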

How the data were processed

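Chromatin immunoprecipitation was sequenced in 30 samples, 24 immunoprecipitated and 6 inputs not analysed here; groups came from the labels. BWA, Picard, MACS2, SICER and the build mm10 are named per the submitters' processing notes, with no settings. Each deposited list is of 1 library. The last column of the MACS2 lists (CTCF, RAD21, H3K9ac) was taken to hold the authors' −log10 q-value of a peak, and that of the SICER lists (polymerase) as a deposited count of reads per island, both judged from the values. Library depth is not given, and list length is only a rough guide to it. The POLR2S2 list of 4% O2 replicate 2 is the shortest of its form, with 16174 islands. Its median reads per island, 301, are the highest of that form. Intervals cover counting error only. The full list of each replicate 2 library lies with replicate 1, and its own label holds peak summits or the same list, with equal scores in all 12 cases.

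Peaks were merged at 1 bp of overlap on chromosomes 1 to 19, X and Y. Genes, strands and promoters came from RefSeq GRCm38.p6. Scores were ranked within a library over regions called in all 4 libraries of the antibody. Polymerase shares were compared over libraries with exact sign-flip tests. Island reads were fitted over all islands called in all 4 libraries with edgeR 4.0.16 (TMM, filterByExpr, Benjamini-Hochberg), with DESeq2 1.42.0 as an alternative. R 4.3.3, Python 3.11.15 and SciPy 1.17.1 were used, and the code was tested on simulated data.

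Replicate numbers mark different flow cells, 3 in all, each replicate of an antibody with both O2 levels on 1, per the file headers. Deviations of same-numbered libraries correlated at 0.388 to 0.688 across regions. For CTCF at 20% O2, replicate 1, an unexplained code stands in the header and the library was placed by its label.

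The members and gene lists were chosen with earlier results of these data known. Named were the top members by CTCF and RAD21 rank, the 3 largest rank changes per mark and direction with libraries of the levels apart, members past edgeR or with the largest read ratios, up to 5 members per gene list, and those nearest the rule's edge. Some genes and 1 marker list are not reported here.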

Additional observations from a re-analysis of the deposited data

How the results depend on the processing

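The count of members was 1287 with scores of 10 or more in every list and 1630 to 2351 with windows of 500 bp and 2 kb or an overlap of 100 bp. Leaving out 1 replicate of an O2 level gave 1888 to 3018, the highest without 20% O2 replicate 1. The polymerase share differences against gene ends without H3K9ac kept their sign under stricter overlap, larger islands, other windows and with each library left out (58.2 to 67.8 points for POLR2, 44.0 to 52.9 for POLR2S5, 11.6 to 26.5 for POLR2S2). The exception was POLR2S2 at 3′ ends alone, at -0.319, and the cause was not tested. The edgeR count of members was 0 in the main test of each form. It became 4 for POLR2S2 with the replicate block, 2 for POLR2S5 and 7 for POLR2S2 with DESeq2, and ranged from 0 to 46 for POLR2, 0 to 10 for POLR2S5 and 0 to 0 for POLR2S2 with a library left out (1 library then stands for that O2 level). No filter on low counts and reads per kb gave 0 for each form.

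Rank differences had the same sign in both replicate numbers, the replicate block, with means of 1.82 for CTCF, 5.11 for RAD21 and 1.81 for H3K9ac. With a library left out they ranged from -1.40 to 5.85, 1.38 to 9.44 and -1.91 to 4.84. CTCF turned to -0.976 without 4% O2 replicate 2 and to -1.40 without 20% O2 replicate 1, and H3K9ac to -1.91 without the latter. Leaving out a library sets a single replicate number against a mean of both. Ranked over the members alone the RAD21 difference was -0.181, since such ranks have a fixed mean. The share of windows overlapping a member that hold the CTCF core was 25.6%, 8.46% with the stricter consensus and 44.7% where the window holds the summits. Inputs and depth were not used, so absent peaks may be undetected rather than absent.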
